A study of Bos taurus with 8 samples.

Results

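Brown and beige adipocytes burn fuel to make heat, and the genes described here are 9 regulators and markers of that programme: *PPARGC1A*, *PPARGC1B*, *PRDM16*, *UCP2*, *UCP3*, *DIO2*, *ADRB1*, *CIDEA* and *TMEM26*. In this programme, noradrenaline acts on β-adrenergic receptors and raises cAMP, protein kinase A then activates lipolysis and transcription, and coactivators of the PGC-1 family together with the coregulator PRDM16 turn on mitochondrial and uncoupling genes. Uncoupling protein 1 lets protons return across the inner mitochondrial membrane without ATP synthesis, and deiodinase 2 adds to the response by making active thyroid hormone inside the cell. Beige adipocytes arise within white depots from precursors that carry surface markers such as TMEM26.

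The 9 genes were taken by symbol, and all 9 were among the 18871 named genes of the count table. RNA-seq was done on 8 single-cell preadipocyte clones of *Bos taurus*, 4 from the stromal vascular fraction (SVF) of intramuscular fat (IMF1 to IMF4) and 4 from that of subcutaneous fat (SF1 to SF4), to compare the 2 kinds of preadipocytes. The donors were adult male Angus-cross steers, and no clone carried a genetic change or received a treatment that differed between the groups. Each clone came from its own SVF sample and was selected, among other traits for how it grew and formed fat, so the clones do not sample a depot at random. The steers were fewer than the 8 clones, so that some IMF and SF clones came from the same animal. Which ones was not stated, and the main test treated the 8 clones as independent. The methods of the study place RNA extraction in growing clones below confluence, whereas the design text deposited with the data places adipogenic induction before sequencing, and the 2 accounts were not reconciled here.

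Total counts, including the few without a gene name, ranged from 19658612 in IMF1 to 29315019 in IMF2, and from 19983562 in SF2 to 24872553 in SF3. Levels are given as CPM, counts scaled by TMM to a library of 1e+06. A floor of 3 counts corresponded to between 0.0981 CPM (IMF2) and 0.165 CPM (SF4), and covers counting error only. Of the named genes, 18339 had a total of at least 20 counts and were tested, all 9 regulators among them. A gene was called when its adjusted p in edgeR's quasi-likelihood test fell under 0.05 with a log2 fold change (IMF over SF) of 1 or more in either direction.

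Of the 9 regulators, 1 gene, *UCP2*, was called higher in the IMF preadipocyte clones, beside 4.78% of all genes tested, and 0 were called lower, beside 4.04% of all genes. In either direction 1 of 9 regulators and 8.82% of all genes were called, so that the count by itself does not set these genes apart. Adjusted p alone was under 0.05 for the same 1 regulator, beside 25.8% of all genes (14.4% higher and 11.4% lower in IMF). At an unadjusted p under 0.05 in edgeR, 3 regulators were higher and 2 were lower in IMF, beside 20.2% and 17.8% of all genes. The count of 0 lower became 1 with DESeq2 and was 0 with limma-voom. In 4 of the 9 genes all IMF clones exceeded all SF clones, beside 18.0% of all genes, and in 0 the SF clones all lay above, beside 14.1% (32.1% in either direction). The median log2 fold change was 0.59 over the 9 genes and -0.03 over all genes tested. Scaling by total counts alone moved the median of all genes to 0.12, and none of the 9 genes changed sign under that scaling.

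**Figure D1:**
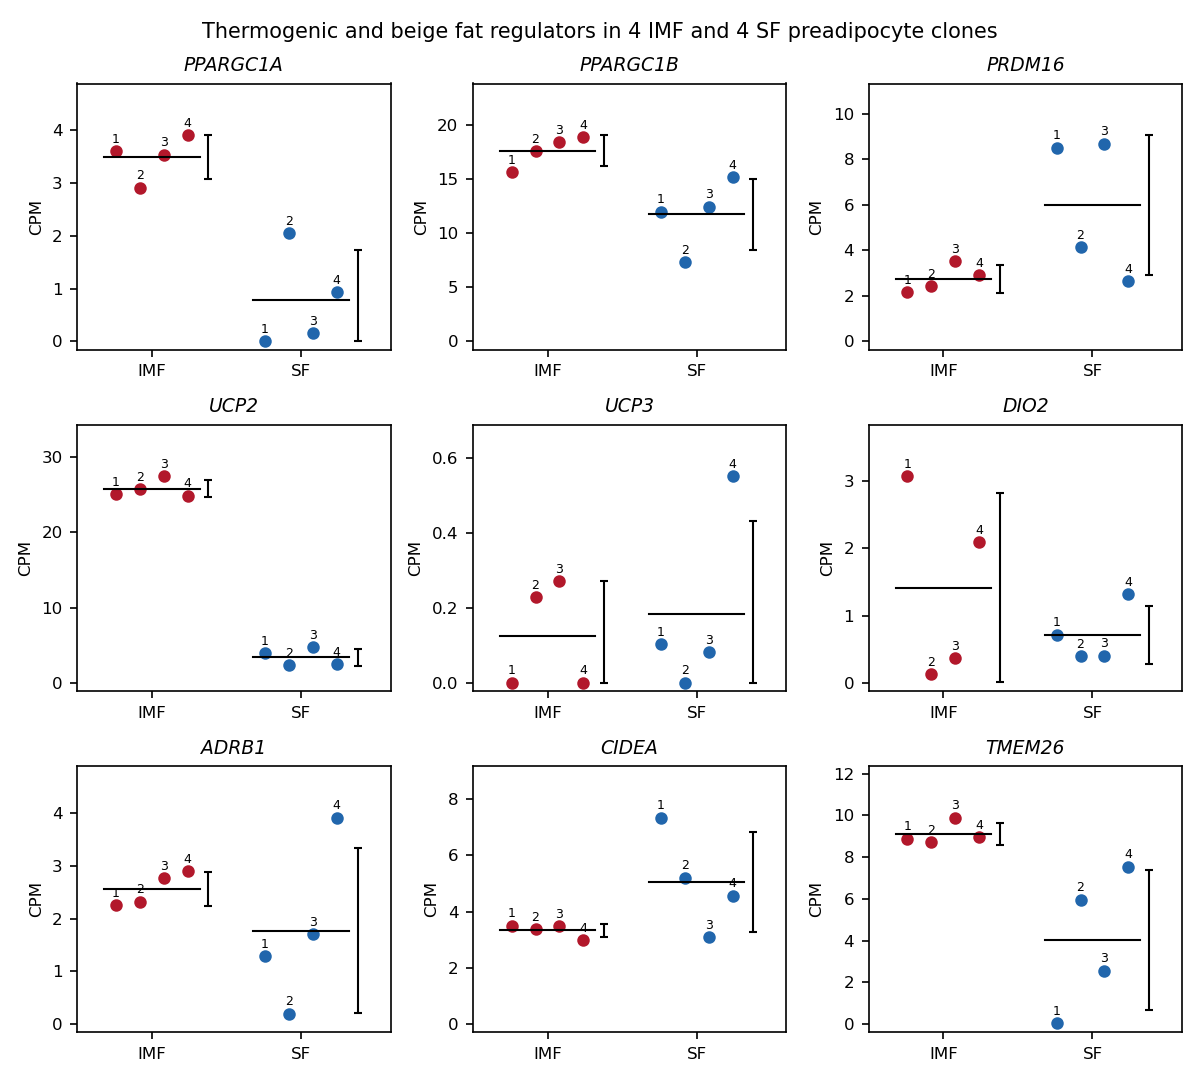
Level of each of the 9 regulators in CPM (linear axis from 0, a different range in each panel) in the 4 IMF (red) and 4 SF (blue) preadipocyte clones. Points are clones with their number, horizontal lines are group means, and bars beside them are the SD (n = 4), drawn no lower than 0. *UCP2* sits between 24.9 and 27.4 CPM in the IMF clones and between 2.35 and 4.75 CPM in the SF clones.

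*ADRB1* encodes the β1-adrenergic receptor, which receives the noradrenaline signal at the top of the programme. Its counts were 47, 71, 61 and 61 in IMF1 to IMF4 and 25, 4, 42 and 71 in SF1 to SF4. The IMF clones lay close together at 2.56 ± 0.321 CPM, while the SF clones spread from 0.200 CPM in SF2 to 3.91 CPM in SF4, which was above every IMF clone. The difference was smaller than the spread among the SF clones (log2 fold change 0.53 with a standard error of 0.64, adjusted p = 0.594, edgeR). Over the alternatives the log2 fold change ranged from 0.16 without SF2 to 1.26 without SF4.

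*DIO2* encodes the deiodinase that converts thyroxine to triiodothyronine. Its counts were 64, 4, 8 and 44 in the IMF clones and 14, 8, 10 and 24 in the SF clones. IMF1 and IMF4 lay above every SF clone and IMF2 and IMF3 below every SF clone, so that the groups overlapped (1.41 ± 1.41 CPM (IMF) against 0.712 ± 0.433 CPM (SF), SD, n = 4 each). The log2 fold change was 0.98 (with standard error 0.91, adjusted p = 0.472, edgeR), and it moved to 0.26 without IMF1, 1.46 without SF4 and 0.04 with limma-voom. All 8 counts of *DIO2* are even numbers, as they are in 8.60% of all genes tested and in 14.9% of the 2304 genes with a total of 100 to 300 counts. The 344 genes of that size with 8 even counts had median levels of 0.960, 0.392, 0.635 and 0.857 CPM in IMF1 to IMF4, where *DIO2* had 3.07, 0.131, 0.363 and 2.09 CPM. In both, IMF2 was lowest, IMF3 next and IMF1 highest. The 1960 other genes of that size had medians from 0.948 to 1.09 CPM in the IMF clones. The part of the counting in the *DIO2* pattern was not tested.

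*PPARGC1A* encodes PGC-1α, the cold-inducible coactivator of mitochondrial biogenesis. Its counts were 75, 89, 78 and 82 in IMF1 to IMF4 and 0, 41, 4 and 17 in SF1 to SF4. The IMF clones were even, with a coefficient of variation of 11.9% where counting error alone gives 11.1%, while SF1 had no count, SF3 lay just over the floor and SF2 reached more than any other SF clone. The level was 3.49 ± 0.416 CPM (IMF) against 0.788 ± 0.937 CPM (SF), a 4.43-fold ratio of means, and the groups did not overlap. The log2 fold change of 2.15 (standard error 0.90, 95% interval 0.10 to 4.22) missed the threshold (adjusted p = 0.116, edgeR). Without SF2 the log2 fold change was 3.28 (adjusted p = 0.0372), and limma-voom on all 8 clones gave 3.50 (adjusted p = 0.0244), both past the thresholds. The adjusted p ranged from 0.0244 to 0.878 over the alternatives, the highest with glmTreat, whose null is a log2 fold change up to 1.

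*PPARGC1B*, which encodes the related coactivator PGC-1β, had 325, 537, 405 and 396 counts in IMF1 to IMF4, against 233, 146, 306 and 275 in SF1 to SF4. On the CPM scale all IMF clones exceeded all SF clones, by a narrow margin between IMF1 (15.6 CPM) and SF4 (15.2 CPM), and SF2 was lowest. The levels were 17.6 ± 1.43 CPM (IMF) against 11.7 ± 3.26 CPM (SF). The log2 fold change was 0.59 (with standard error 0.20, 95% interval 0.14 to 1.04, adjusted p = 0.0606, edgeR). It ranged from 0.42 to 0.75 over the alternatives, under the fold threshold. In edgeR the adjusted p was 0.0147 with total counts alone and from 0.0319 to 0.147 with a clone left out. The *MIR378-1* gene lies inside the span of *PPARGC1B*, and how reads of overlapping genes were assigned was not stated.

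*PRDM16* encodes the zinc finger coregulator that directs precursors towards brown and away from muscle fate, and it was 1 of 3 regulators with a lower mean in IMF. Its counts were 45, 74, 78 and 61 in the IMF clones and 166, 83, 214 and 48 in the SF clones. SF1 and SF3 stood well above the other clones at 8.52 and 8.68 CPM, whereas SF4, at 2.64 CPM, fell within the range of the IMF clones (2.16 to 3.54 CPM). The log2 fold change was -1.13 (with standard error 0.39, 95% interval -2.02 to -0.24, adjusted p = 0.0660, edgeR). Without SF4 it was -1.37 (adjusted p = 0.0181) and with DESeq2 it was -1.13 (adjusted p = 0.0254), both past the thresholds, and over all alternatives the adjusted p ranged from 0.0181 to 1.00. A long noncoding RNA gene overlaps *PRDM16*.

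*UCP2* encodes a carrier of the inner mitochondrial membrane that is related to uncoupling protein 1 and occurs in many tissues. Its counts were 523, 787, 605 and 523 in IMF1 to IMF4 and 77, 47, 117 and 45 in SF1 to SF4. Every IMF clone was far above every SF clone, the IMF clones were nearly even, and SF3 and SF1 were the higher of the SF clones. The level was 25.8 ± 1.15 CPM (IMF) against 3.38 ± 1.16 CPM (SF) (SD, n = 4 each), a 7.62-fold ratio. The log2 fold change was 2.92 (with standard error 0.22, 95% interval 2.41 to 3.43, adjusted p = 6.77e-05, edgeR). It was called under all 18 alternatives, with log2 fold changes from 2.78 to 3.10 and an adjusted p of at most 0.00198. Per length, *UCP2* had 27.1 ± 2.83 TPM in IMF and 3.52 ± 1.32 TPM in SF, above 82.7% of the genes tested in IMF and 42.5% in SF. Whether more *UCP2* RNA per cell or more cells with the RNA gave this difference cannot be told apart in bulk RNA, also within a clone.

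*UCP3*, the skeletal muscle member of the uncoupling proteins, lies near *UCP2* on chromosome 15 of ARS-UCD2.0 (53439744 to 53451115, with *UCP2* at 53409782 to 53416245). Its counts were 0, 7, 6 and 0 in the IMF clones and 2, 0, 2 and 10 in the SF clones. In 2 IMF clones and 3 SF clones it was no higher than that 3-count floor, and no difference was called (log2 fold change -0.47 with a standard error of 1.47, adjusted p = 0.846, edgeR). Without SF4 its sign turned (1.00).

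*CIDEA* encodes a lipid droplet protein that is abundant in brown fat. Its counts were 73, 103, 77 and 63 in the IMF clones and 143, 104, 76 and 83 in the SF clones. SF1, SF2 and SF4 lay above every IMF clone and SF3 within their range, at 3.08 CPM. The levels were 3.34 ± 0.236 CPM (IMF) against 5.05 ± 1.77 CPM (SF) (log2 fold change -0.59 with a standard error of 0.25, 95% interval -1.18 to -0.01, adjusted p = 0.123, edgeR). Without SF3 the adjusted p was 0.0262 at a log2 fold change of -0.81, under the fold threshold, and over all alternatives it ranged from 0.0262 to 1.00.

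*TMEM26* encodes a membrane protein used as a surface marker of beige cells. Its counts were 185, 266, 218 and 188 in the IMF clones and 1, 119, 63 and 137 in the SF clones. The IMF clones were almost level (9.10 ± 0.531 CPM), while the SF clones ranged from under the floor in SF1 to 7.55 CPM in SF4, still below every IMF clone. With that spread the log2 fold change of 1.18 had a standard error of 0.79 and an adjusted p of 0.319 (edgeR), and the adjusted p was 0.101 or higher over the alternatives. Its fold change on the log2 scale ranged from 0.77 without SF1 to 2.38 with limma-voom. A long noncoding RNA gene also overlaps *TMEM26*.

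The spread among clones differed between the groups. In 8 of the 9 regulators the coefficient of variation was larger among the SF clones, as it was in 64.7% of the 9522 genes with a mean of 20 to 500 counts. The median coefficient of variation over those genes was 12.5% in IMF and 22.4% in SF. In the SF clones 6 regulators lay above the upper quartile of 39.8%: *UCP3* (135%, with fewer counts than those genes), *PPARGC1A* (119%), *ADRB1* (87.8%), *TMEM26* (83.7%), *DIO2* (60.9%) and *PRDM16* (51.1%). In the IMF clones *UCP3* (116%) and *DIO2* (99.6%) lay above the upper quartile of 28.6%, and *UCP2* (4.47%), *TMEM26* (5.84%) and *CIDEA* (7.06%) below the lower quartile of 7.49%. The SF clones did not share 1 order. SF4 was highest among them for 5 genes, *PPARGC1B*, *UCP3*, *DIO2*, *ADRB1* and *TMEM26*, and lowest for *PRDM16*. SF1 was lowest for *PPARGC1A* and *TMEM26* and highest for *CIDEA*. SF2, which was highest for *PPARGC1A*, was lowest for *PPARGC1B*, *UCP2*, *UCP3*, *DIO2* and *ADRB1*, although *UCP3* was near the floor and SF2 and SF3 were level for *DIO2* (0.400 and 0.406 CPM).

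Compared per length, the order of mean TPM in the IMF clones was *UCP2* (27.1), *TMEM26* (3.95), *ADRB1* (3.04), *PPARGC1B* (2.46), *CIDEA* (1.69), *PPARGC1A* (0.817), *PRDM16* (0.416), *DIO2* (0.335) and *UCP3* (0.156). The clones of neighbours in this order overlapped between *ADRB1* and *PPARGC1B*, between *PRDM16* and *DIO2* and between *DIO2* and *UCP3*, and were separate for the other neighbours. In the SF clones the order by TPM was *UCP2* (3.52), *CIDEA* (2.52), *ADRB1* (1.97), *TMEM26* (1.70), *PPARGC1B* (1.59), *PRDM16* (0.904), *UCP3* (0.204), *PPARGC1A* (0.187) and *DIO2* (0.158). There, the clones of all neighbours overlapped. Apart from *UCP2* in IMF, none of the 9 genes was above 44.3% of the genes tested by mean TPM in either group.

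The genes with the most similar profile were searched among 13188 genes as the smallest root mean square difference in centred log2 CPM over the 8 clones. For *UCP2* they were *FKBP5* (0.28), *UNC5B* (0.28) and *ITGA2* (0.29). *FKBP5* had between 1622 and 2607 counts per IMF clone, against 104 to 268 per SF clone. For *PPARGC1A* they were *TMEM100* (0.56), *HPGD* (0.57) and *CSF2RB* (0.64), in each of which SF2 was also the highest SF clone. *TMEM26* was closest to *CCDC141* (0.36), with 0, 105, 21 and 93 counts in SF1 to SF4, followed by *CH25H* (0.56) and *PSD4* (0.56). *PPARGC1B* was closest to *MMACHC* (0.06), *CLCN3* (0.13) and *SH2D5* (0.13), and *ADRB1* to *MAF* (0.25), *RANBP17* (0.34) and *CPE* (0.41). *PRDM16* was closest to *SLFN11*, *SFRP2* and *ZFPM1* (all 0.29), and *CIDEA* to *NID1* (0.08), *PYCR3* (0.12) and *AKAP12* (0.14). Close to *DIO2* were *ARHGAP20* (0.51), which also has 8 even counts, and *GPR37L1* (0.54).

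The 9 genes map to 8 chromosomes of the ARS-UCD2.0 assembly. *PPARGC1A* spans 43380463 to 44095232 on chromosome 6, *PPARGC1B* 61073721 to 61194295 on chromosome 7 and *PRDM16* 49573784 to 49985717 on chromosome 16. *DIO2* lies at 91490127 to 91504569 on chromosome 10 and is overlapped by a long noncoding RNA gene. *ADRB1* lies at 34512662 to 34538131 on chromosome 26, *CIDEA* at 42778543 to 42792110 on chromosome 24, and *TMEM26* at 17259945 to 17324484 on chromosome 28. The *CIDEA* span overlaps a further protein-coding gene, *LOC132343779*, so that its counts may depend on how shared reads were assigned.

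The partners and targets of these regulators were followed in 9 lists of 145 other genes, of which 126 were tested. In edgeR, 12 were called higher and 6 lower in the IMF clones, 14.3% against 8.82% of all genes. The median log2 fold change was 0.01 over the 126 genes, against -0.03 over all genes, but the lists differed: it was 0.28 in the transcriptional activators, where the clones were separate in 11 of 24 genes with IMF higher and in 2 with SF higher (beside 18.0% and 14.1% of all genes), 0.20 in the mitochondrial genes and -0.35 in the uncoupling carriers. The most abundant gene of a list is that with the highest mean TPM over the 8 clones, which need not lead in CPM. The counts below are to be read beside the shares of all genes higher and lower in IMF: 4.78% and 4.04% called, 14.4% and 11.4% at an adjusted p under 0.05, and 20.2% and 17.8% at an unadjusted p under 0.05.

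**Figure D2:**
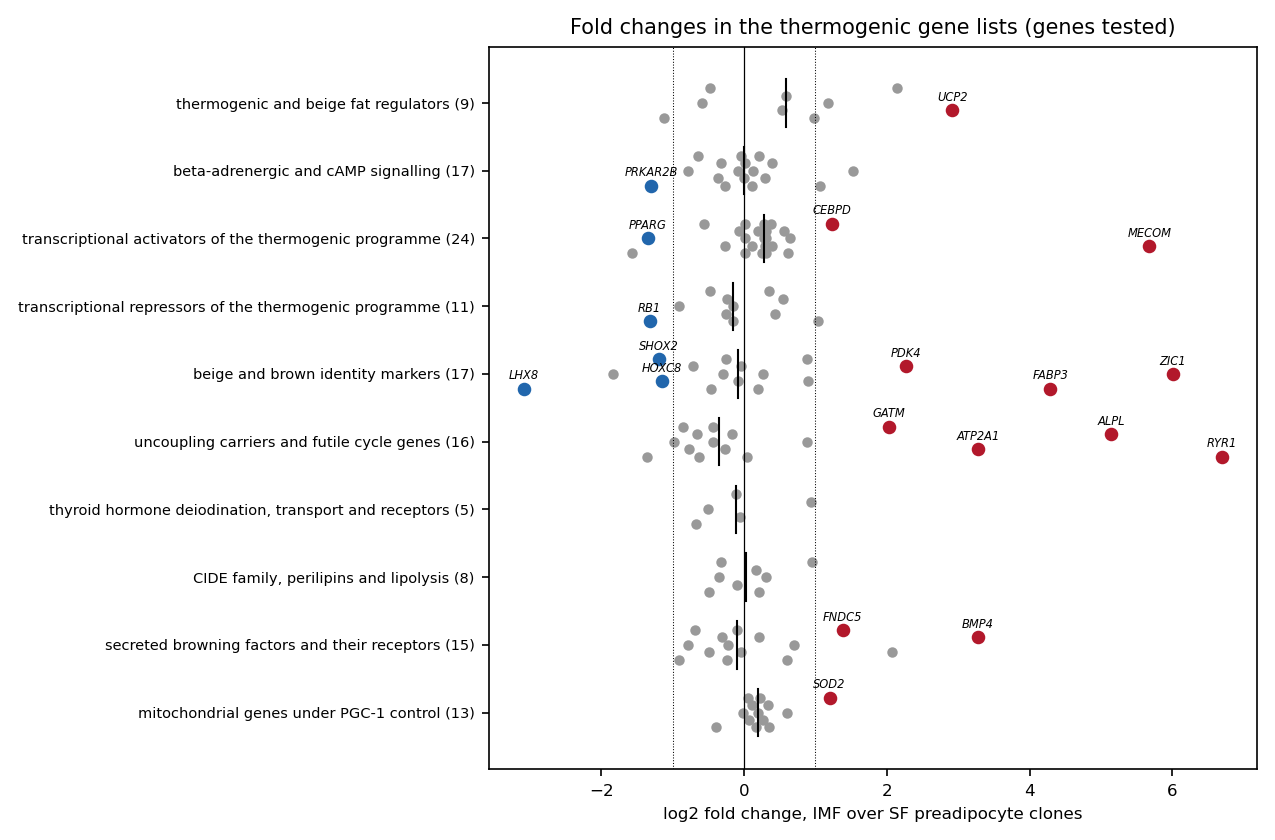
Log2 fold change (IMF over SF preadipocyte clones, linear axis) of the genes tested in the list of 9 regulators and in 9 lists of partner genes, with the number tested in brackets. Each point is a gene, red where called higher and blue where called lower in IMF, vertical ticks are list medians, and dotted lines mark 1 and -1. *LHX8* is lowest at -3.08 and *RYR1* highest at 6.70, and the values of *MECOM* and *ALPL* are fitted against SF clones at or under 3 counts.

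Of 17 genes of β-adrenergic and cAMP signalling, 0 were called higher and 1 lower in IMF. DESeq2 and limma-voom each called 1 higher, as did edgeR without SF1 or without SF2. At an unadjusted p under 0.05 in edgeR 3 were higher and 4 lower. *PRKAR2B*, a regulatory subunit of protein kinase A, had between 156 and 281 counts per IMF clone, against 299 to 628 per SF clone (log2 fold change -1.30 with a standard error of 0.26, adjusted p = 0.00791). *ADRB3*, the receptor of rodent brown fat, had at most 18 counts in any clone, all 8 of them even numbers. *GNAS*, the stimulatory G protein subunit and the most abundant gene of the list, differed by less than the fold threshold (-0.26, adjusted p = 0.0466).

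Of 24 transcriptional activators tested, 2 were called higher and 1 lower in IMF (2 lower with DESeq2), and at an adjusted p under 0.05 whatever the fold 9 were higher and 1 was lower, beside 14.4% and 11.4% of all genes. *MECOM*, the closest relative of *PRDM16*, had 71, 128, 86 and 100 counts in IMF1 to IMF4, against 0, 2, 1 and 3 in SF1 to SF4. All 4 SF clones were at or under the floor, and the ratio of summed counts scaled by library size was 55.9 (exact 95% counting interval 25.4 to 153, adjusted p = 0.000195, edgeR). Without SF4 the fitted log2 fold change moved from 5.68 to 6.28. *CEBPD*, an early adipogenic factor, was higher by 1.23 on the log2 scale (standard error 0.19, adjusted p = 0.00209). *PPARG*, the master regulator of adipogenesis and a partner of the PGC-1 proteins, was lower (1.23 ± 0.244 against 3.13 ± 0.538 CPM, log2 fold change -1.35, adjusted p = 0.00365). *EBF2*, a selector of brown precursors, had between 70 and 110 counts per IMF clone, against 50 to 82 per SF clone, and the difference was within the spread (0.25, standard error 0.18, adjusted p = 0.351). *PPRC1*, the third PGC-1 family gene, was higher by less than the fold threshold (0.28, adjusted p = 0.0439), and *YBX1*, the most abundant of the list, had a log2 fold change of 0.30 (adjusted p = 0.0728).

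Of 11 transcriptional repressors, 0 were called higher and 1 lower in IMF, and at an unadjusted p under 0.05 in edgeR 4 were higher and 4 lower. DESeq2 called 1 higher and limma-voom 0, and edgeR without SF3 or with total counts alone called 1. *RB1*, the retinoblastoma protein, had 582, 888, 652 and 634 counts in IMF1 to IMF4, against 768, 1536, 2258 and 1516 in SF1 to SF4 (log2 fold change -1.32 with a standard error of 0.23, adjusted p = 0.00399), and its 8 counts are all even. *TWIST1*, a PGC-1α corepressor and the most abundant of the list by TPM, had a log2 fold change of -0.91 (adjusted p = 0.0106), under the fold threshold, which it passed without SF1 (-1.01) and without SF4 (-1.04).

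Of 17 beige and brown identity markers tested, 3 were called higher and 3 lower in IMF, and 5 were called higher without SF3 or with total counts alone. *ZIC1*, a zinc finger factor of the brown lineage in rodents, had 154, 222, 146 and 147 counts in IMF1 to IMF4, against 0, 0, 9 and 0 in SF1 to SF4 (log2 fold change 6.01 with a standard error of 0.84, adjusted p = 0.00128). SF3 was the only SF clone with counts, and without it the fitted log2 fold change was 10.25, a value that depends on the prior count. *FABP3*, a fatty acid-binding protein of oxidative tissues, had 83.8 ± 8.99 CPM (IMF) against 4.27 ± 2.13 CPM (SF) (4.29, adjusted p = 7.72e-05), and *PDK4*, which restrains glucose oxidation, was higher by 2.27 on the log2 scale (adjusted p = 0.000126). Going the other way, *LHX8*, a homeobox gene also used as a brown marker, had between 9 and 18 counts per IMF clone, against 73 to 116 per SF clone (-3.08, standard error 0.32, adjusted p = 0.000327). *ZIC1* and *LHX8*, both markers of brown fat in rodents, thus moved in opposite directions. The homeobox genes *SHOX2* (-1.19) and *HOXC8* (-1.14) were also lower in IMF. *SHOX2* was at -0.83 without SF4, and *HOXC8* at -0.997, just under the threshold, with total counts alone. *MPZL2*, the most abundant of the list, had a log2 fold change of -0.46 (adjusted p = 0.327).

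Of 16 uncoupling carriers and futile cycle genes tested, 4 were called higher and 0 lower in IMF, with 5 higher and 6 lower at an unadjusted p under 0.05, and 5 higher and 4 lower at an adjusted p under 0.05 in edgeR. DESeq2 called 1 lower and limma-voom 0, while edgeR called 2 lower without SF2 or without SF3 and 1 without IMF2 or without SF4. It also called 1 lower with no filter, with at least 10 counts in at least 4 clones, and with genes of 8 even counts removed, an alternative chosen after seeing the data. *RYR1* and *ATP2A1*, the calcium release channel and calcium pump of skeletal muscle, had log2 fold changes of 6.70 (standard error 0.44, adjusted p = 2.99e-05) and 3.28 (0.20, adjusted p = 2.15e-05). Their relatives in the list did not share this direction. *ATP2A2*, far more abundant than *ATP2A1* (6.34 CPM in IMF), had 237 CPM in IMF against 405 CPM in SF. Its log2 fold change was -0.77 (adjusted p = 0.00194, edgeR), and that of *RYR2* was -0.66 (adjusted p = 0.419, edgeR). *RYR1* had 2, 2, 6 and 0 counts in SF1 to SF4, of which only SF3 lay over the floor. Without SF3 its fitted value was 7.40, which depends on the few counts that are then in SF and on the prior count. *ALPL*, an alkaline phosphatase, had between 77 and 131 counts per IMF clone, against 1 to 3 per SF clone, a ratio of 37.2 (exact 95% counting interval 19.4 to 82.1, adjusted p = 2.25e-05, edgeR). *SLC25A14* and *SLC25A27*, which encode the other uncoupling protein relatives of *UCP2*, did not share its difference: the log2 fold changes were 0.04 (adjusted p = 0.924) and -0.63 (adjusted p = 0.0258). *SLC25A6*, an adenine nucleotide carrier and the most abundant of the list, was at -0.16 (adjusted p = 0.222).

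In the thyroid hormone list, 5 genes were tested and 0 were called in either direction in edgeR, with 1 higher and 1 lower at an unadjusted p under 0.05. The latter also had an adjusted p under 0.05 and stayed below the fold threshold. DESeq2 called 0, and limma-voom 1 higher, as did edgeR without SF1. The most abundant by TPM, *SECISBP2*, which is needed to make deiodinases, was at -0.06 (adjusted p = 0.669). In the list of CIDE proteins, perilipins and lipolysis, 8 were tested and 0 were called in either direction in edgeR, with 2 higher and 1 lower at an unadjusted p under 0.05. DESeq2 called 0, and limma-voom 1 higher, as did edgeR without SF2, without SF3 or with total counts alone. *CIDEC*, the relative of *CIDEA*, had at most 29 counts in any clone (0.31, adjusted p = 0.899). *PLIN2*, a lipid droplet coat protein and the most abundant of the list, was at 0.95 (adjusted p = 0.0249), just under the fold threshold, which it passed under 5 alternatives.

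Of 15 secreted browning factors and receptors tested, 2 were called higher and 0 lower in IMF, with 3 higher and 4 lower at an unadjusted p under 0.05 in edgeR and 0 called lower by DESeq2 or limma-voom. Without SF1 edgeR called 1 lower. *BMP4*, a commitment factor of preadipocytes, had between 378 and 648 counts per IMF clone, against 37 to 48 per SF clone (log2 fold change 3.28 with a standard error of 0.12, adjusted p = 2.89e-06). *FNDC5*, the irisin precursor, was higher by 1.38 on the log2 scale (adjusted p = 0.00924). *METRNL*, the most abundant of the list by TPM, was at -0.49 (adjusted p = 0.187). Of 13 mitochondrial genes under PGC-1 control, 1 was called higher and 0 lower in IMF, with 5 higher and 1 lower at an unadjusted p under 0.05 in edgeR and 0 called lower by DESeq2 or limma-voom. The gene called, *SOD2*, had 25.1 ± 1.70 CPM (IMF) against 10.9 ± 2.08 CPM (SF) (log2 fold change 1.20, adjusted p = 0.000513). The most abundant, *ATP5F1B*, was at 0.22 (adjusted p = 0.0976).

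Markers of other cell types moved with the groups. All 12 skeletal muscle and satellite cell markers tested of 13 listed were called higher in IMF. The satellite cell marker *PAX7*, the remaining one, was not among the named genes and could not be examined. The summed level of the 12 markers was 1252, 1223, 1239 and 1106.5 CPM in IMF1 to IMF4 and at most 34.1 CPM in an SF clone. *ACTC1* was the most abundant by TPM, and *MYOD1*, *MYOG* and *CHRNA1* had 0 counts in all SF clones. Of 10 endothelial markers 9 were called higher, with sums from 337 to 381 CPM in IMF and from 27.3 to 38.1 CPM in SF. By TPM the most abundant was *CLDN5*, the marker that was not called (log2 fold change 0.24, adjusted p = 0.492) and that made up most of the SF sums (31.3 CPM on average), and its 8 counts are all even. *KDR*, *SELE* and *CD93* were at 0 in all SF clones. The part of muscle and endothelial transcripts in the differences of *UCP2*, *PPARGC1A*, *RYR1*, *ATP2A1* and *FABP3* was not tested.

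All 8 preadipocyte markers listed were tested, with sums from 415 to 434 CPM in IMF and from 315 to 461 CPM in SF, and *PDGFRB* was the most abundant by TPM. *PDGFRA* and *PDGFRB* carried most of the sums, so these do not speak for each marker: *DLK1* had 66, 0, 4 and 38 counts in IMF1 to IMF4, all 8 of its counts being even. In the SF clones *CD34* had at most 2 counts. *CD34* was called higher and *PPARG* lower in IMF. Of 10 mature adipocyte markers listed, *ADIPOQ*, *LEP* and *LPL* were not among the named genes. *PCK1*, with a total of 14 counts, was not tested. Of the 6 tested, 1, *FABP4*, was called higher (9.64 ± 1.86 against 0.178 ± 0.207 CPM) and 0 were called lower. The markers with counts summed to from 21.6 to 23.3 CPM in IMF and from 11.2 to 18.9 CPM in SF. Of 3 mural markers tested, *MYH11* was called higher and *ACTA2* and *CSPG4* lower, with sums from 1064 to 1195 CPM in IMF and from 1285 to 6622 CPM in SF, most of it *ACTA2*. Of 5 leukocyte markers *CD14* was called higher and *CD3E* lower (25.2 to 44.1 CPM in IMF and 52.4 to 89.7 CPM in SF, most abundant by TPM *TYROBP*), and of 3 Schwann cell markers *ERBB3* was called higher (6.75 to 7.81 and 2.87 to 5.76 CPM, most abundant by TPM *S100B*). The part of these transcripts in the levels of the regulators was not tested either.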

How the data were processed

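Paired-end reads were trimmed by the authors (Trimmomatic 0.39), mapped on the ARS-UCD2.0 assembly, counted per gene with featureCounts 2.0.2 and deposited as raw counts for 4 IMF and 4 SF clones, 1 library each. The methods name HISAT2 as the aligner, and the submitters' processing notes list STAR 2.7.11a. The methods describe a non-stranded kit and the labels a dUTP protocol, so reads of overlapping genes may have been shared. Gene lengths were deposited beside the counts and were used for TPM. The authors also deposited group means as a signal, and a DESeq2 comparison (mean signal, log2 fold change, standard error, score, p-value), none of which was used. The 1 row without a gene name, 0.0148% to 0.0209% of counts, was left out.

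The test, on genes whose 8 counts sum to 20 or more, was that of edgeR 4.0.16 under R 4.3.3 (TMM, two-sided quasi-likelihood test, Benjamini-Hochberg over all genes tested, prior count 0.125). Standard errors came from the same fit. Symbols and positions came from RefSeq's gene list for that assembly. Alternatives were DESeq2 1.42.0, limma-voom (limma 3.58.1), RLE size factors, total counts alone, no filter, at least 10 counts in at least 4 clones, the clone number as a replicate block, glmTreat, a prior count of 2, and leaving out each clone. Removing genes with 8 even counts was chosen after seeing the data. The code was tested on simulated data. Python 3.11.15 made the tables and figures.

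The members and lists were chosen with earlier results of these data known. Genes were named by rule: all members, their paralogs and partners, *EBF2* and *PPARG*, in each list up to 3 called genes per direction with a mean of at least 1 CPM and the most abundant gene, and the 3 genes with the closest profile for members with a total of at least 100 counts, apart from genes not used here. Cell-type genes, *ATP2A2* and *RYR2* were named after their values were seen. *UCP1*, *DIO1*, *DIO3*, *CIDEB* and 15 further list genes had no row of that name in the count table and were not analysed. The smallest total over the 8 clones in that table was 11 counts.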

Additional observations from a re-analysis of the deposited data

How the results depend on the processing

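*UCP2* was called under every one of the 18 alternatives, and no member had a called change that turned. The count of members called higher was 2 with limma-voom (*UCP2* and *PPARGC1A*) and from 1 to 2 with a clone left out, and the count called lower was 1 with DESeq2 (*PRDM16*) and from 0 to 1 with a clone left out. Tested against a log2 fold change of 1 with glmTreat, 631 of the genes were called (476 higher, 155 lower), and of the partner genes 8 were higher against 12 and 1 was lower against 6. Of the 18 called genes named among the members and partners, 8 were not called then: *PPARG*, *PRKAR2B*, *CEBPD*, *RB1*, *SHOX2*, *HOXC8*, *FNDC5* and *SOD2*. Of the calls, 54.2% were higher in IMF, against 66.7% with total counts alone and 75.4% with glmTreat, but 48.9% with DESeq2 and 47.0% without IMF1. Signs turned in genes that were not called: *ADRB3* was at -0.80 with limma-voom and from -1.03 to 0.72 with a clone left out, *CIDEC* at -0.041 with limma-voom and from -0.74 to 1.58, *SLC25A14* from -0.12 to 0.17, *UCP3* from -1.10 to 1.00, and *SECISBP2* at 0.093 with total counts alone. The cause was not tested. Deviations of same-numbered IMF and SF clones from the group means correlated at 0.0548 on average (-0.00933 to 0.139, 4 pairs). For different numbers the average was -0.0184 (12 pairs). Centring on the group means ties these 2 averages together, so the second is no separate control. Whether a clone number marks an animal was not stated, so pairing by animal cannot be judged from these values. With the replicate block 1489 genes were called against 1618, 2 transcriptional activators were lower against 1, *PLIN2* was called (1.03, adjusted p = 0.0395; 0.00188 to 1.00 over its alternatives), *UCP2* had a log2 fold change of 2.97, and *ADRB3* was at -0.18. No direction was read for *UCP3*, *ADRB3* and *CIDEC*, which had totals of 27, 52 and 79 counts. Their coefficients of variation among the IMF and SF clones were 116% and 135%, 126% and 102%, and 113% and 125%, in that order. Counting error alone gives 55.5% and 53.5%, 37.8% and 40.8%, and 29.5% and 34.8%.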
